A study of Mus musculus with 6 samples.

Results

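The levels of 10 genes of the actin cytoskeleton were examined in the brains of mice that overexpressed the human lncRNA *AP1AR-DT*: the cytoplasmic actins *Actb* and *Actg1*, the twinfilins *Twf1* and *Twf2*, the cofilins *Cfl1* and *Cfl2*, the profilins *Pfn1* and *Pfn2*, and the capping protein genes *Capza2* and *Capzb*. They were found by gene symbol among the 52390 genes listed, and all 10 were among the 21844 genes that passed the filter on low counts. The genes were chosen by their family and by measured values of the same comparison, since the fold change of *Twf2* and the levels of *Actb* in these libraries were known when they were selected. Their differences between the groups are therefore given as a description with standard errors and no *P* value.

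RNA-seq was performed on brain RNA from 3 *AP1AR-DT* OE mice and 3 control mice. All were male C57BL/6 mice that received a recombinant adeno-associated virus (AAV) in the medial prefrontal cortex when 8 weeks old. In the *AP1AR-DT* OE mice the virus carried *AP1AR-DT*, labelled with its older name AC109347.1, driven by the synapsin I promoter of human neurons, together with EGFP under the CMV promoter. The control mice, labelled wild type, received the empty AAV vector without an insert. The labels give the tissue only as brain, while the study's results name the medial prefrontal cortex and its methods cortical tissue, so each library mixes cells that took up the virus with cells that did not. In such bulk RNA, fewer cells of a type and less RNA per cell cannot be told apart. The control libraries are numbered 1 to 3 as the mice are. The columns of the other group could not be assigned to single mice and are called A, B and C.

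Actin exists as free monomers and as filaments that grow at one end and shrink at the other. Profilin binds monomers and delivers them to growing ends, cofilin severs old filaments, twinfilin binds monomers and takes part in the turnover of filament ends, and the capping protein, a dimer of an alpha and a beta subunit, closes growing ends. In neurons these proteins shape growth cones and dendritic spines, whose heads are filled with actin filaments. Beta-actin is also widely used as a reference gene in qPCR.

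The libraries held 42061721 to 54668294 counts, and mitochondrial genes took 7.20% to 9.86% of the control counts and 5.75% to 6.80% of the *AP1AR-DT* OE counts. Values are given as normalised CPM, a gene's count relative to the total of its library after adjustment by TMM factors. Markers of other regions and cell types differed between the libraries. The 10 choroid plexus markers summed to 5124 CPM in control 3 and to between 110 and 149 CPM in the other libraries. The 10 hypothalamic markers summed to 663 CPM in control 2 and to at most 80.3 CPM elsewhere. The 9 markers of cortical excitatory neurons summed to 93.0 to 439 CPM in the controls and 176 to 688 CPM in the *AP1AR-DT* OE libraries, against 1078 to 2223 CPM for 7 markers of GABA neurons over all libraries. Striatal markers, 8 in number, summed to 353 to 1354 CPM in the controls and 854 to 2388 CPM in the other group, and 0 were past the thresholds used here. The 9 microglial markers summed to 334 to 403 CPM and 350 to 491 CPM, with 3 of 9 higher past these thresholds, and the 7 endothelial markers to 89.6 to 102 CPM and 108 to 141 CPM, with 2 of 7 higher. Lower past the thresholds were 7 of 9 choroid plexus and 5 of 8 hypothalamic markers tested. The 7 thalamic markers summed to 221 to 857 CPM in the controls and 181 to 254 CPM in the other group, with 2 lower. The 8 oligodendrocyte markers summed to 5224 to 11040 CPM and 5261 to 5341 CPM, with 3 lower. General neuronal markers had 2 higher and 1 lower of 8, cortical excitatory markers 1 in each direction of 9, and astrocyte markers 1 lower of 7. Of all these markers, 0 were at 0 counts in every library, and their part in the results was not tested. The spread between libraries of one group was large, with a common biological coefficient of variation of 0.313.

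A gene was called when edgeR's quasi-likelihood test gave *P* under 0.05 and the |log2 fold change| was above 0.32, the thresholds of the study. Of all genes tested, 12.2% were called, 5.1% as higher and 7.15% as lower in *AP1AR-DT* OE mice, and 0.0275% had an adjusted *P* under 0.05. Of the 10 genes, 2 were called, *Twf2* and *Actg1*, both higher. DESeq2 at the same thresholds called 3 of the 10, with *Actb* added as lower, and 2965 of all genes. Without library C edgeR called 4 of the 10, with *Actb* lower and *Cfl1* higher added, and 3508 of all genes. With either correction for GC content 1 of the 10 was called, *Twf2*, and 1566 or 1568 of all genes. The libraries of the groups did not overlap for 3 of the 10 (*Twf2*, *Actg1* and *Capza2*), as for 22.4% of all genes tested. Since the genes were selected with this comparison known, nothing is read from these shares. The median log2 fold change of the 10 genes was 0.02, and that of all genes tested was -0.01.

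**Figure D1:**
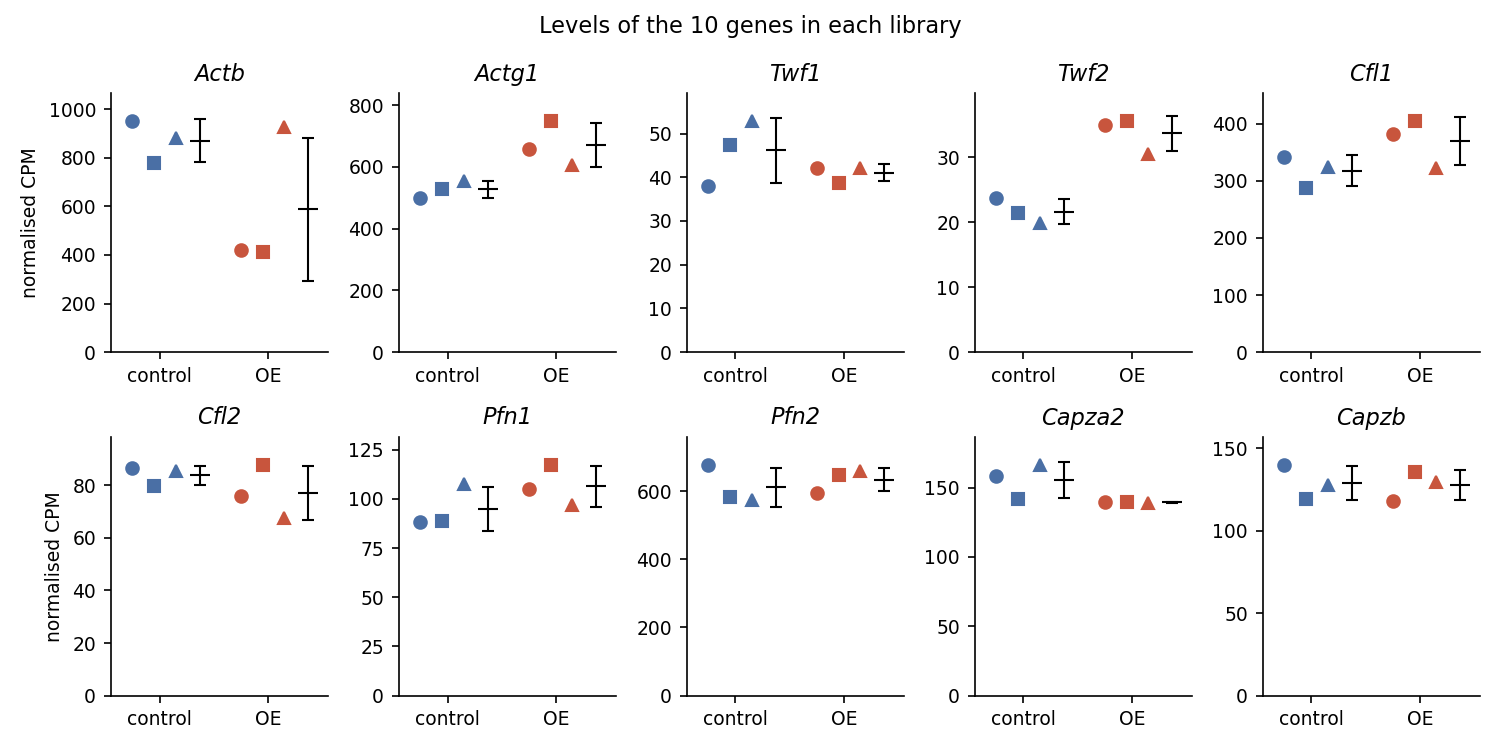
Normalised CPM (linear axis from 0) of the 10 genes in each library. Blue marks are controls 1 to 3 and red marks *AP1AR-DT* OE libraries A to C (circle, square and triangle in that order), and the black bars give the mean and SD of each group (n = 3). For *Actb*, libraries A and B lie at 421 and 414 CPM and library C at 928 CPM, among the controls. For *Twf2* and *Actg1* all red marks lie above all blue marks.

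The cytoplasmic actins are nearly the same protein made from 2 genes, and they were the most abundant of the family per length. In the controls *Actb* was at 453 and *Actg1* at 271 normalised CPM per kilobase of the longest transcript. *Actb* lies on chromosome 5 (GRCm38, chr5:142903115-142906754, minus strand) and *Actg1* on chromosome 11 (chr11:120345690-120348542, minus strand), each with 6 exons and 1125 coding bases. Their coding sequences are alike but differ at many silent positions. The stretch across the junction of exons 2 and 3 is shown for both, 30 bases on each side, with the downstream exon in capitals.

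Actb exon 2 to 3: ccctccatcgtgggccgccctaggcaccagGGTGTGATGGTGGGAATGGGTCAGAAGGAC
Actg1 exon 2 to 3: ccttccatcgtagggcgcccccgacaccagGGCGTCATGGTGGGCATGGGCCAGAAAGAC

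*Actb* was uneven within the *AP1AR-DT* OE group. Its level was 950, 777 and 883 CPM in controls 1 to 3 and 421, 414 and 928 CPM in libraries A, B and C. Libraries A and B were below every control, while library C lay within the range of the controls. The mean was 870 ± 87.7 CPM in the controls and 588 ± 295 CPM in the *AP1AR-DT* OE mice (SD, n = 3 each), with a log2 fold change of -0.57 ± 0.32 (SE). Without library C the log2 fold change was -1.04, and leaving out each library in turn gave values down to this and up to -0.37.

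Few abundant genes varied as much within the group. Among the 220 genes with a mean of at least 500 CPM, the highest of the 3 *AP1AR-DT* OE libraries exceeded the lowest 1.17-fold for the median gene and 2.24-fold for *Actb*, and 4 genes had a larger ratio, *Ndn*, *Glul*, *Vamp2* and *Ttr*. These comparisons were chosen after the values of *Actb* had been seen. By root mean square difference of centred log2 levels over the 6 libraries, the protein-coding genes most like *Actb* were *Zfp953* at 0.085, *Csnk2a2* at 0.15, *Sco2* at 0.15, *Hfm1* at 0.16 and *Zfp612* at 0.16. *Csnk2a2*, a catalytic subunit of casein kinase 2, was at 53.1, 56.6 and 45.5 CPM in the controls and at 25.2, 24.8 and 56.7 CPM in libraries A, B and C. *Zfp953* and *Hfm1* had low levels, 0.59 to 1.43 CPM and 0.64 to 1.23 CPM over the libraries.

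The deposited counts of *Actb* also nearly coincided between libraries of different depth. They were 38666, 38669 and 44097 in controls 1 to 3 and 22329, 22329 and 48681 in libraries A, B and C. Controls 1 and 2 thus differed by 3 counts and libraries A and B by none, while the totals of controls 1 and 2 were 42061721 and 48478873. Of 1520 genes with at least 5000 counts in every library, 24 had a pair of libraries within 3 counts, and 1, *Actb*, had 2 such pairs that share no library. The tolerance and the minimum were chosen after the counts had been seen, and a cause was not tested.

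*Actg1* was higher in *AP1AR-DT* OE mice. It was at 500, 530 and 554 CPM in the controls and 658, 748 and 606 CPM in libraries A, B and C, so that the groups did not overlap. The means were 528 ± 27.1 and 671 ± 72.0 CPM (SD, n = 3 each), with a log2 fold change of 0.34 ± 0.11 (SE). Leaving out each library in turn gave 0.26 to 0.43, with the values without library B (0.26) and control 1 (0.31) below the threshold of 0.32. The correction for transcript length (0.28) and both corrections for GC content (0.25 and 0.19) also brought it below this threshold. Within each library the balance of the pair follows. *Actb* made up 65.9%, 59.9% and 61.8% of the pair's normalised CPM per kilobase in the controls, 39.4% and 36.0% in libraries A and B, and 60.9% in library C. On the log2 scale the ratio of *Actb* to *Actg1* differed by -1.01 between the *AP1AR-DT* OE and control means, with an SD of 0.79 in that group and 0.19 in the controls, and the groups overlapped through library C.

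Both actins have processed pseudogenes, copies of the spliced mRNA inserted elsewhere in the genome. Such a copy can hold an exon junction that is not broken by an intron, unlike the gene's own locus. The study's methods name the aligner Bowtie2, which makes unspliced alignments, but the submitters' notes name TopHat2. The aligner is therefore uncertain, and its part in the counts of gene and copies was not tested. GENCODE vM21 transcripts with at least 90% identity to a gene over at least 200 bases were found for 11 pseudogenes of *Actg1*, 4 of *Cfl1*, 1 of *Actb* and 1 of *Twf1*. The search found 0 for *Twf2*, *Cfl2*, *Pfn1*, *Pfn2*, *Capza2* and *Capzb*. Of all 100-base stretches of the longest transcript, 51.0% in *Actg1*, 12.4% in *Cfl1*, 5.37% in *Twf1* and 1.10% in *Actb* also occur in the transcripts of another gene, as do 0.447% in *Capza2*. These genes include pseudogenes and others: *Gm12715* shares 44.4% of the stretches of *Actg1*, while the overlapping gene *Snx32* shares 12.1% and the pseudogene *Gm6180* 0.399% of those of *Cfl1*, and the overlapping gene *Irak4* shares 2.94% and the pseudogene *Gm4887* 2.77% of those of *Twf1*.

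The pseudogene *Gm12715* (chr4:103563402-103564529, plus strand) is 99.64% identical to *Actg1* over 1128 bases and holds 3 of the 4 junctions within its coding sequence. *Gm8399* (chr13:81064684-81065800, plus strand) is 98.58% identical over 1125 bases and holds all 4. The junction that *Gm8399* holds and *Gm12715* lacks, and the junction of *Cfl1* held by its copy *Gm6180*, are shown because the pseudogene holds these bases, 30 on each side, without a difference. Longer stretches can differ.

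Actg1 exon 5 to 6: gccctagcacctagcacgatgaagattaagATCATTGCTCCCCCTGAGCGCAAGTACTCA
Cfl1 exon 3 to 4: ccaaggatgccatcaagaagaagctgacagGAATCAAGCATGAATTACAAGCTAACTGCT

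The count of *Gm12715* exceeded that of *Actg1* itself in every library. It was 32399, 37848 and 39864 in the controls and 48225, 52028 and 46307 in libraries A, B and C, beside 20349, 26370, 27690, 34892, 40333 and 31793 for *Actg1*. *Gm8399* had between 11784 and 15632 counts. *Actg1* therefore held 30.7% to 37.0% of the counts summed over itself and its 11 pseudogenes. The sum was at 1599 ± 38.5 CPM in the controls and 1884 ± 128 CPM in *AP1AR-DT* OE mice (SD, n = 3 each), again without overlap. The log2 fold change of the sum was 0.24 ± 0.10 (SE), below 0.32, which *Actg1* alone exceeded. How reads were divided between gene and copies was not tested.

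For *Actb*, the pseudogene *Gm15725* (chr16:37882542-37883631, plus strand), 91.79% identical over 1133 bases, held 1 of the 4 coding junctions. It had 10312, 9697 and 11579 counts in the controls and 13736, 13861 and 11801 in libraries A, B and C. It did not share the low values of *Actb* in libraries A and B. *Actb* held 78.9% to 80.0% of their sum in the controls, 61.9% and 61.7% in libraries A and B, and 80.5% in library C. For the sum the log2 fold change was -0.39 ± 0.22 (SE).

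**Figure D2:**
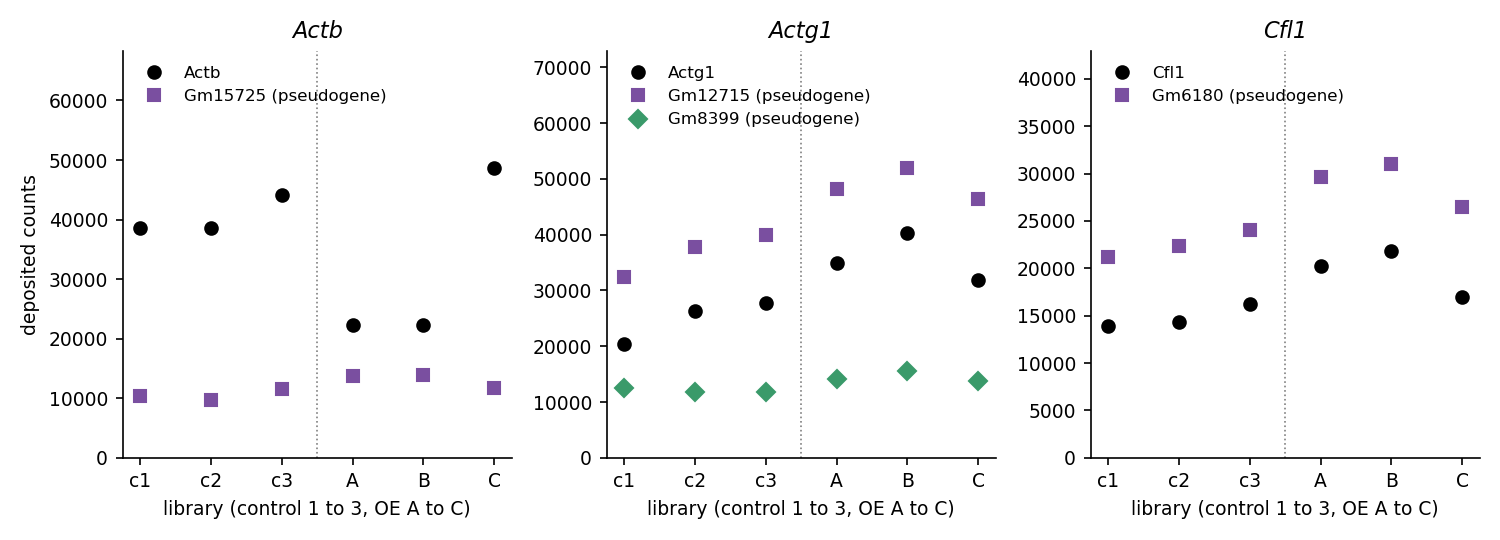
Deposited counts (linear axis from 0) of *Actb*, *Actg1* and *Cfl1* (black circles) and of their most counted processed pseudogenes (coloured marks) in controls 1 to 3 (c1 to c3) and *AP1AR-DT* OE libraries A to C. *Gm12715* lies above *Actg1* and *Gm6180* above *Cfl1* in each library, and *Gm15725* stays between 9697 and 13861 counts while *Actb* falls to 22329 in libraries A and B.

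The twinfilins are related proteins that bind actin monomers and the capping protein. *Twf2* lies on chromosome 9 (chr9:106203108-106215389, plus strand) and *Twf1* on chromosome 15 (chr15:94577951-94589889, minus strand), each with 9 exons. Their sequences across the junction of exons 4 and 5 are shown because they tell the pair apart, and no transcript of another gene met the search criteria above for *Twf2*.

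Twf2 exon 4 to 5: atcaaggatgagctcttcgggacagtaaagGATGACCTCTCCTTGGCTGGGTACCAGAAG
Twf1 exon 4 to 5: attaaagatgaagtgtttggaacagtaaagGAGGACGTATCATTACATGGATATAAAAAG

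*Twf2* had the largest positive log2 fold change of the 10 genes. It was at 23.6, 21.3 and 19.8 CPM in the controls and at 34.9, 35.5 and 30.5 CPM in libraries A, B and C. The lowest *AP1AR-DT* OE library lay above the highest control. The means were 21.6 ± 1.92 and 33.6 ± 2.74 CPM (SD, n = 3 each), a ratio of 1.56, and the log2 fold change was 0.64 ± 0.12 (SE). With each library left out in turn the log2 fold change was between 0.59 and 0.72. With correction for GC content it was 0.45 ± 0.10 (SE).

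*Twf1* was at 38.1, 47.5 and 52.8 CPM in the controls and at 42.2, 38.7 and 42.2 CPM in libraries A, B and C, with overlapping groups and a log2 fold change of -0.17 ± 0.14 (SE). *Irak4*, on the opposite strand, overlaps *Twf1* and had 33 to 107 counts, and the pseudogene *Gm4887* had 972 to 1285. Per length, *Twf2* made up 53.6%, 45.5% and 41.1% of the pair in the controls and 60.6%, 63.0% and 57.3% in libraries A, B and C, without overlap. The log2 ratio of *Twf2* to *Twf1* was -0.19 ± 0.37 in the controls and 0.60 ± 0.17 in *AP1AR-DT* OE mice (SD, n = 3 each), a difference of 0.79. With GC content corrected the difference was 0.46.

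The genes whose pattern over the 6 libraries was most like that of *Twf2* were *Shf* (root mean square difference 0.049 on the log2 scale), *Mrpl52* (0.061), *Gemin2* (0.061), *Galt* (0.063) and *Sptbn4* (0.069). *Shf*, an adaptor protein with an SH2 domain, was at 27.8, 23.9 and 22.7 CPM in the controls and at 37.4, 37.9 and 33.8 CPM in libraries A, B and C. *Sptbn4*, a spectrin of the axon initial segment, was more abundant, at 128 to 152 CPM in the controls and 172 to 218 CPM in the other group. *Gemin2* had a low level, 1.32 to 2.55 CPM over the libraries.

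The cofilins sever and depolymerise filaments, *Cfl1* in most cells and *Cfl2* mainly in muscle. *Cfl1* (chr19:5490455-5495201, plus strand) was at 341, 288 and 324 CPM in the controls and at 382, 405 and 323 CPM in libraries A, B and C. Libraries A and B lay above the controls and library C among them. The log2 fold change was 0.22 ± 0.12 (SE), and 0.32 without library C. *Cfl2* (chr12:54858809-54862877, minus strand) was at 86.4, 79.6 and 85.4 CPM in the controls and at 75.8, 87.8 and 67.4 CPM in libraries A, B and C, with a log2 fold change of -0.12 ± 0.12 (SE).

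As for *Actg1*, a pseudogene was counted above the gene. *Gm6180* (chr8:42246911-42247408, plus strand), 98.80% identical to *Cfl1* over 498 bases, had 21235 to 24098 counts in the controls and 26440 to 30973 in the *AP1AR-DT* OE libraries, and *Cfl1* itself 13886 to 16198 and 16973 to 21811. *Cfl1* held 39.0% to 41.3% of the counts summed over itself and its 4 pseudogenes. The sum had a log2 fold change of 0.19 ± 0.11 (SE). *Snx32* overlaps *Cfl1* on the opposite strand and had 950 to 2235 counts. Since no use of strand was stated, reads of the shared part cannot be told apart. Per length *Cfl1* made up 81.9% to 83.2% of the cofilin pair in the controls and 85.2% to 86.3% in *AP1AR-DT* OE mice, so that the groups did not overlap in this balance. The log2 ratio differed by 0.35, with SDs of 0.06 in both groups. This direction turned when GC content was corrected, to a difference of -0.077 when the longest transcript gave the GC content and -0.036 when it was averaged over transcripts.

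The profilins deliver monomers to growing ends, and *Pfn2* is the form typical of brain. *Pfn2* (chr3:57841895-57848079, minus strand) was at 261 and *Pfn1* (chr11:70651850-70654644, minus strand) at 47.5 normalised CPM per kilobase in the controls. *Pfn1* was at 88.1, 88.6 and 108 CPM in the controls and at 105, 117 and 96.8 CPM in libraries A, B and C. *Pfn2* was at 677, 583 and 574 CPM in the controls and at 595, 646 and 658 CPM in libraries A, B and C. The groups overlapped for both, and the log2 fold changes were 0.17 ± 0.12 and 0.05 ± 0.10 (SE). Per length *Pfn1* made up 13.2% to 18.0% of the pair in the controls and 14.7% to 17.6% in the other group.

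*Capza2* encodes an alpha subunit and *Capzb* the beta subunit of the capping protein. *Capza2* (chr6:17636234-17666972, plus strand) was at 158, 142 and 167 CPM in the controls and at 140, 139 and 139 CPM in libraries A, B and C. All 3 *AP1AR-DT* OE libraries lay below the lowest control, by a small margin, and the log2 fold change was -0.16 ± 0.09 (SE). *Capzb* (chr4:139192899-139291818, plus strand) was at 140, 119 and 128 CPM in the controls and at 118, 136 and 130 CPM in libraries A, B and C, with a log2 fold change of -0.01 ± 0.10 (SE). The other alpha subunit of brain, *Capza1*, was at 45.5 ± 3.12 and 39.1 ± 3.38 CPM (SD, n = 3 each), with a log2 fold change of -0.22 and an edgeR adjusted *P* = 0.378.

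**Figure D3:**
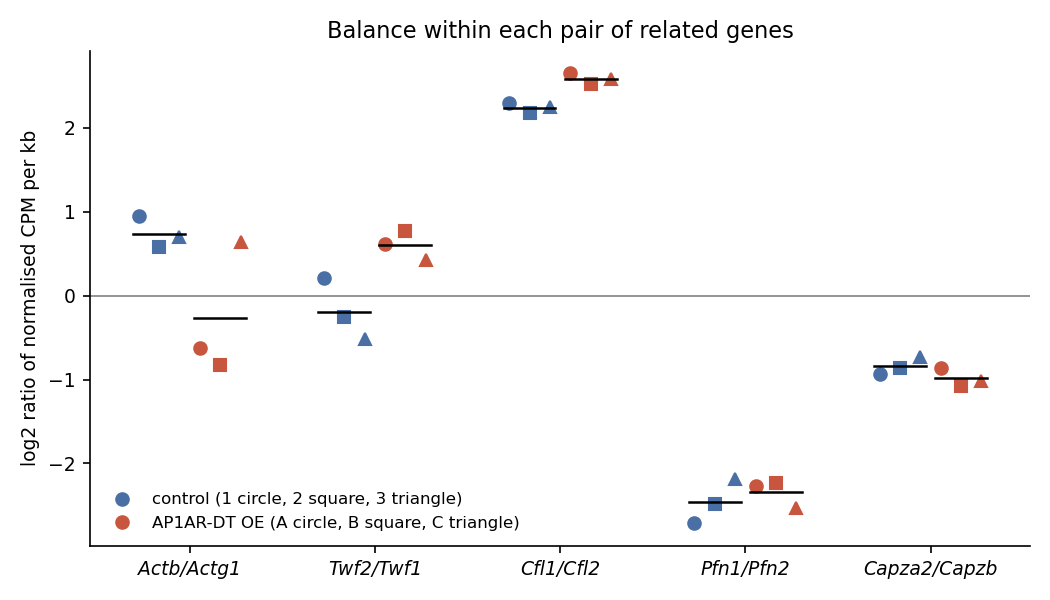
Log2 ratio of normalised CPM per kilobase within 5 pairs of related genes. Each mark is a library (blue, controls; red, *AP1AR-DT* OE; circle, square and triangle in column order), and the black lines are the group means. The groups do not overlap for *Twf2*/*Twf1* and *Cfl1*/*Cfl2*, and for *Actb*/*Actg1* library C lies among the controls while A and B lie below 0. The ratios are not corrected for GC content, and with the correction the difference between the groups was 0.46 for *Twf2*/*Twf1* and turned to -0.077 for *Cfl1*/*Cfl2*.

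The base composition of the transcripts moved with the fold changes. Over all genes the median log2 fold change rose from -0.30 in the lowest of 10 equal bins of GC content to 0.22 in the highest. *Cfl2* (36.9% GC) and *Capza2* (36.1%) lay in the lowest bin, *Twf1* (43.9%) in the third, *Actb* (51.1%) in the sixth, *Actg1*, *Cfl1*, *Pfn2* and *Capzb* (51.2% to 52.6%) in the seventh, *Twf2* (57.0%) in the ninth and *Pfn1* (59.2%) in the highest. With smooth GC curves of each library as offsets, the log2 fold changes were -0.62 for *Actb*, 0.25 for *Actg1*, 0.45 for *Twf2*, -0.0033 for *Twf1* and 0.16 for *Cfl1*. The direction turned for *Cfl2* (0.23), *Capza2* (0.20), *Pfn1* (-0.06) and *Pfn2* (-0.03). *Capzb* was at -0.09. Of the 10 genes, *Actb* and *Twf2* stayed beyond 0.32 in size.

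**Figure D4:**
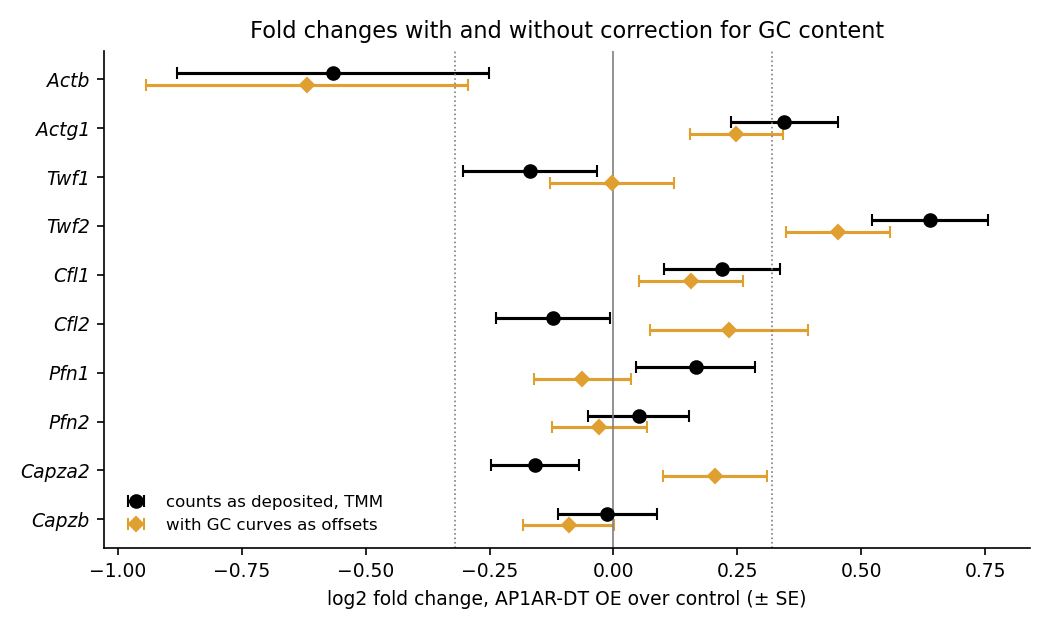
Log2 fold change of *AP1AR-DT* OE over control for the 10 genes, from the counts as deposited (black circles) and with GC curves as offsets (yellow diamonds). Bars are standard errors, and dotted lines mark ±0.32. *Twf2* lies to the right of the dotted line in both, at 0.64 and 0.45, while *Cfl2* and *Capza2* change sides of 0.

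The study used beta-actin and *Gapdh* as references in qPCR. Its beta-actin primers are shown as given, 5′ to 3′, with bases that differ from mouse *Actb* in capitals. The study also used human cells, and the primers' species was not stated beside them.

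beta-actin-F: gggaaatcgtgcgtgacatT
beta-actin-R: ggaGttgaaGgtagtttcGtg

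The forward primer matched coding bases 617 to 636 of mouse *Actb* with 1 difference (T20C) and *Actg1* with 3. The reverse primer matched the opposite strand of bases 823 to 843 with 3 differences (G4A, G10T and G19A) and *Actg1* with 4. Primer positions are counted from 1 at the 5′ end, the primer's base standing first and the base of *Actb* last. An exact match to a mouse transcript was found for 0 genes with either primer.

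The level of *Negr1* relative to a reference differed in sign with the reference. In the medial prefrontal cortex of *AP1AR-DT* OE mice, the study reported less *Negr1* RNA by RNA-seq and by qPCR, and less protein by Western blot. It also reported less *NEGR1* in human SK-N-SH cells that overexpressed *AP1AR-DT*. *Negr1* encodes a neuronal adhesion molecule. Its level was 187, 197 and 154 CPM in the controls and at 151, 127 and 147 CPM in libraries A, B and C, with a log2 fold change of -0.34 ± 0.12 (SE; edgeR adjusted *P* = 0.297). It was called as lower, but with GC content corrected it was at -0.15 and no longer called. Relative to *Actb*, its log2 level was -2.34, -1.98 and -2.52 in the controls and -1.48, -1.71 and -2.66 in libraries A, B and C, so the mean was 0.33 higher in *AP1AR-DT* OE mice with overlapping groups. This difference was 0.09 without library A and 0.69 without library C. Relative to *Gapdh* it was 0.55 lower, relative to *Actg1* 0.68 lower, and relative to the median of 10 reference genes 0.29 lower. *Gapdh*, a glycolytic enzyme, was at 47.8 ± 6.77 and 55.2 ± 4.70 CPM (SD, n = 3 each; edgeR adjusted *P* = 0.470). These are RNA-seq ratios and not qPCR measurements. *Gapdh* was not part of the search for pseudogenes, which covered the 10 genes described.

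The 10 genes are embedded in a wider set of actin regulators, given here as 8 lists by function with 105 other genes tested. Of these, 6 were called as higher and 4 as lower, or 9.52%, against 12.2% of all genes. By edgeR 0 had an adjusted *P* under 0.05, 15 had an unadjusted *P* under 0.05, and DESeq2 and limma-voom also gave 0 after adjustment. Single libraries moved the count of 10 calls, to 3 without library A, 5 without B, 19 without C and 16 without control 1. The count over all genes tested moved in the same directions, from 2675 to 1620, 1430, 3508 and 3391 in that order. The median log2 fold change of the 105 genes was 0.11, and 0.04 with correction for GC content of the longest transcript. Over all genes tested it was -0.01. The lists were chosen with earlier results of these data known.

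The formins, which nucleate and elongate unbranched filaments, held 4 of the 10 calls among 18 genes of the list with other nucleators, or 22.2% against 12.2% of all genes. The count was 1 without library A, 1 without B, 6 without C and 2 or 1 with the GC curves. Over all genes tested it moved in the same directions, from 2675 to 1620, 1430, 3508 and 1566 or 1568. *Diaph3* was at 3.45 ± 0.30 CPM in the controls and 1.54 ± 0.55 CPM in *AP1AR-DT* OE mice, with a log2 fold change of -1.16. *Fmn2*, a formin of brain and oocyte, was lower by the same call, at 93.8 ± 5.43 and 73.3 ± 8.26 CPM (-0.36), as was *Fmnl2*, at 44.2 ± 5.52 and 32.2 ± 4.82 CPM (-0.46). *Fmnl1* was higher, at 22.7 ± 3.99 and 31.1 ± 4.21 CPM (0.46). All values are means ± SD of 3 libraries, and edgeR's adjusted *P* was 0.295 for the genes that were lower and 0.300 for *Fmnl1*. The median of the list was -0.09, and -0.15 with correction for GC content of the longest transcript.

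Among regulators that act on cofilin, *Tesk1*, a kinase that phosphorylates it, was higher (log2 fold change 0.33, edgeR adjusted *P* = 0.312), the 1 call of 13 genes. In the monomer-binding and disassembly list 1 of 16 other genes was called, *Coro1b*, a coronin (0.33, adjusted *P* = 0.318). *Dstn*, the third member of the cofilin family, was at 170 ± 20.6 and 145 ± 10.7 CPM (SD, n = 3 each; -0.23, adjusted *P* = 0.377). In the capping list 1 of 14 was called, *Eps8*, which caps and bundles filaments (-0.47, adjusted *P* = 0.295). Among 20 crosslinkers and tropomyosins 1 was called, the bundling protein *Fscn1* (0.42, adjusted *P* = 0.324), with overlapping groups. The 10 subunits of the Arp2/3 complex, which makes filament branches, had 0 calls by edgeR at these thresholds and 1 *P* under 0.05, and log2 fold changes between -0.25 and 0.27.

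Cofactors of the serum response factor SRF sense free actin monomers and, together with SRF, switch on actin genes. The list of SRF, its cofactors and their targets had 2 calls among 14 genes, or 14.3% against 12.2% of all genes. Both were of the factor and its cofactors, *Srf* and *Mrtfa*. None of the targets among the 14 was called, while *Actg1*, also in the list, is among the 10 genes described. The count was 0 without library A, 1 without B or control 2 and 0 with the GC curves. Over all genes tested it also fell, from 2675 to 1620 without A, 1430 without B, 2204 without control 2 and 1566 or 1568 with the GC curves. *Srf* was at 47.6, 39.5 and 39.8 CPM in the controls and at 62.9, 59.3 and 49.0 CPM in libraries A, B and C, without overlap (log2 fold change 0.43, edgeR adjusted *P* = 0.295). *Mrtfa* was at 64.6 ± 13.2 and 84.5 ± 9.27 CPM (SD, n = 3 each; 0.39, adjusted *P* = 0.325) and was also called, with overlapping groups. *Mrtfb* was at 138 to 221 CPM in the controls and 192 to 224 CPM in the other group (0.29, adjusted *P* = 0.451). The median of the list was 0.30, and 0.14 with GC content corrected. Of the muscle actins, which mark muscle and vessel walls, *Actc1* and *Actg2* did not pass the filter, *Acta1* was at 5.63 ± 0.34 and 6.61 ± 0.83 CPM (adjusted *P* = 0.517) and *Acta2* at 3.98 ± 0.55 and 5.96 ± 2.43 CPM (adjusted *P* = 0.396).

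The GC content of the called genes differed by direction. The 6 called as higher had 56.9% to 64.4% GC and the 4 called as lower 42.9% to 50.5%. With the GC curves as offsets, *Srf* was at 0.09, *Mrtfa* at 0.18, *Tesk1* at 0.03, *Coro1b* at 0.15, *Fscn1* at 0.16 and *Fmnl1* at 0.25, and none of these 6 passed both thresholds in edgeR. *Diaph3* (-0.98), *Eps8* (-0.43) and *Fmn2* (-0.40) still passed, and *Fmnl2* was at -0.31, short of 0.32. Other genes of the lists were called only with these curves. The lists together then held 7 calls, 2 higher and 5 lower.

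**Figure D5:**
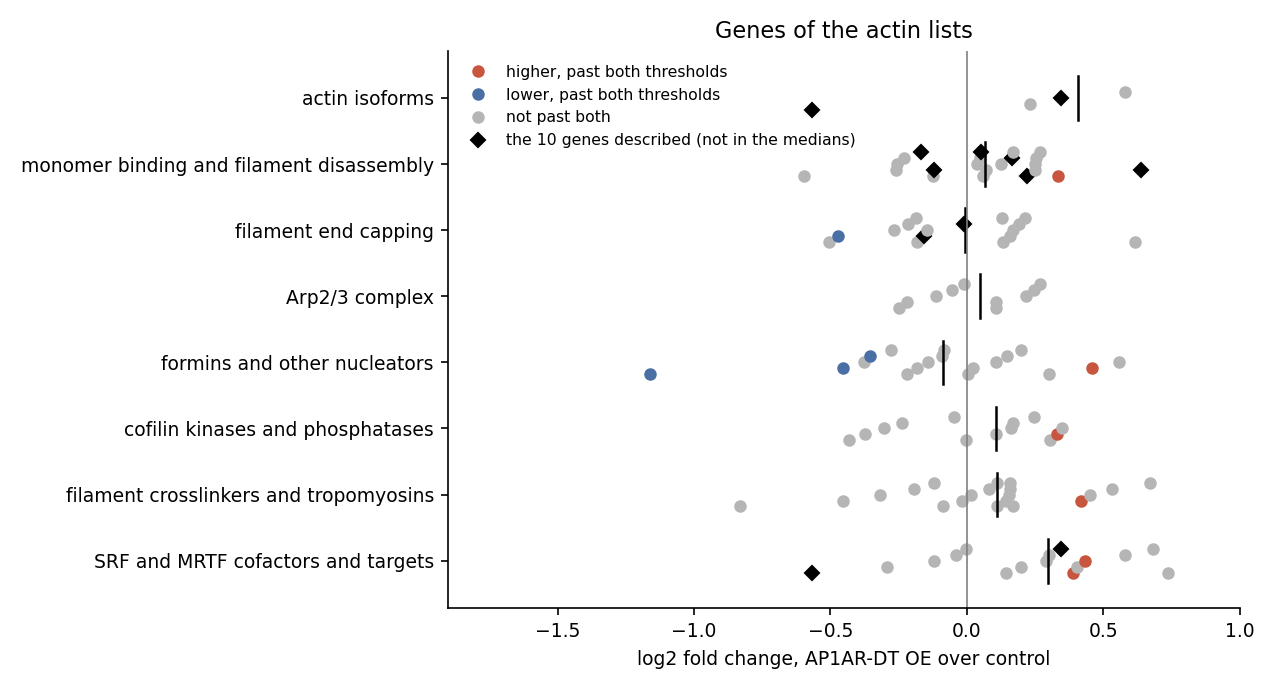
Log2 fold change (horizontal axis) of each gene tested in 8 lists of actin genes, with the vertical black line at the median of each list. Red and blue points are genes called as higher or lower, grey points the rest and black diamonds the 10 genes described, which are left out of the medians. Calls are spread over 6 of the lists, and 3 of the 4 blue points are formins.

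GC boxes occurred in the promoters of the family that were given. RefSeq promoters (GRCm38.p6, 250 bases before to 50 after the start) were given for 8 of the 10 genes, and not for *Actb* and *Twf2*. Searched on both strands, GGGCGG was found in 8 of 8, against 35.7% of the 32851 promoters of the table, CCAAT in 4 of 8 against 37.4%, TATAAA in 0 of 8 against 13.6%, and the CArG box, the motif that SRF binds, in 1 of 8, that of *Actg1*, against 1.63%. The 8 promoters had 54.7% to 77.7% GC, and promoters of like GC content were not compared. The CArG box can itself contain TATAAA, and a match does not show that a factor binds there.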

How the data were processed

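RNA-seq of brain tissue from 3 *AP1AR-DT* OE and 3 control mice was analysed. According to the study's methods, the authors mapped reads to GRCm38 with Bowtie2 and derived whole-number counts per gene with StringTie from GENCODE genes, and they deposited these counts without normalization. The submitters' processing notes instead name TopHat2 2.0.4, HTSeq, edgeR 2.6.12 and mm9, so the counting is uncertain. Versions of Bowtie2 and StringTie, and use of strand, are not given in the sources used here. The deposited table also holds the authors' mean level, fold change, standard error, test statistic and *P* values, which were not used. Columns of samples not used numbered 0.

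Counts were fitted in R 4.3.3 with edgeR 4.0.16 (filterByExpr, TMM, quasi-likelihood F-test, two-sided, Benjamini-Hochberg over all 21844 genes tested). Each library is labelled as 1 mouse, and precision rests on 3 per group. GC and length curves were splines with 5 degrees of freedom, used as offsets. Alternatives were these curves, other filters, limma-voom (limma 3.58.1), unscaled library totals, DESeq2 1.42.0 and its size factors in edgeR, and leaving out each library; summing genes with pseudogenes and GC correction of the paralog ratios were added after seeing the data. The edgeR, DESeq2 and limma-voom fits were tested on simulated counts with known changes and the same dispersion for all genes. The simulation had no GC trend and no differences in tissue between libraries, so it did not test the fits under these. Coordinates, GC content and lengths are from GENCODE vM21 (52081 of 52390 identifiers found), and partners from blastn 2.17.0. The coordinates in the table were of another build and were not used. Tables and figures used Python 3.11.15, pandas 2.3.3 and matplotlib 3.10.9.

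The 10 genes, the gene lists and the tests were chosen with earlier results of these data known. Named genes are the 10, those called in each list (at most 3 per direction, by *P*), *Negr1*, *Gapdh*, *Srf*, *Mrtfa*, *Mrtfb*, *Capza1*, *Dstn* and the 5 genes most like *Twf2* and *Actb*. *Acta1*, *Acta2*, genes beside *Actb* in spread, overlapping genes and pseudogenes were named after their values were seen.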

Additional observations from a re-analysis of the deposited data

How the results depend on the processing

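Over 15 alternatives, 140 of 150 log2 fold changes of the 10 genes kept their side of 0; *Cfl2*, *Pfn1*, *Pfn2*, *Capza2* and *Capzb* each crossed it in 2. With GC content of the longest transcript, values moved beyond 1 SD for *Twf2* (0.45), *Cfl2* (0.23), *Pfn1* (-0.063) and *Capza2* (0.20); with mean GC content, for *Actg1* (0.19), *Twf2* (0.44), *Cfl2* (0.18), *Pfn1* (-0.028), *Pfn2* (0.17) and *Capza2* (0.16). The cause was not tested. Genes called numbered 2675 as reported, 1566 and 1568 with the GC curves (longest transcript, mean), and 1430 (without library B) to 3508 (without C) with each library left out, 1620 without A. At an adjusted *P* under 0.05 there were 6 genes, 450 with DESeq2, and 0 (without B, where 1430 were still called) to 13 (without control 3). In the actin lists together 10 became 7 with GC content of the longest transcript, 5 with mean GC content, and 3 to 19 with a library left out.

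By list, GC content of the longest transcript gave 2 calls for capping, 1 for Arp2/3, 2 for formins, 0 for cofilin kinases and phosphatases, 0 for SRF and 1 for reference genes. Mean GC content gave 2 for monomer binding, 1 for formins, 0 for cofilin kinases and phosphatases, 0 for SRF and 1 for reference genes. Transcript length gave 0 for monomer binding, 2 for capping, 0 for crosslinkers and 1 for reference genes, and limma-voom 2 for crosslinkers. With a library left out, counts ran from 0 to 1 for actin isoforms, 0 to 3 for monomer binding, 1 to 2 for capping, 0 to 1 for Arp2/3, 1 to 6 for formins, 0 to 3 for cofilin kinases and phosphatases, 0 to 3 for crosslinkers, 0 to 3 for SRF and 1 to 3 for reference genes. With GC content of the longest transcript and mean GC content, added after seeing the data, the balance moved to 0.46 and 0.45 for *Twf2* to *Twf1*, -0.077 and -0.036 for *Cfl1* to *Cfl2*, 0.29 and 0.26 for *Capza2* to *Capzb*, and to -0.20 with mean GC content for *Pfn1* to *Pfn2*. *Negr1* relative to *Actb* was 0.33 higher, but -0.55 relative to *Gapdh* and -0.29 relative to the median of reference genes, and 0.09 (without library A) to 0.69 (without C) with a library left out. No paired analysis was possible because the groups share only number 3 and the *AP1AR-DT* OE columns carry no mouse number. The 10 genes had at least 962 counts in every library; all *AP1AR-DT* OE libraries were deeper than all controls, and a fit at matched depth was not run.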
